A study of Homo sapiens with 28 samples.

Results

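The IFIT and OAS antiviral families were followed as 10 named genes in MDA-MB-231 cells, a human breast cancer line, with and without overexpressed tropomyosin Tpm2.1. The genes are IFIT1, IFIT2, IFIT3, IFIT5, OAS1, OAS2, OAS3, OASL, RSAD2 and CMPK2, taken by symbol from the 58735 genes of the count table, and all 10 were found. RNA sequencing covered 28 libraries in 14 groups of 2, labelled as biological replicates. The control line carried an empty vector (EV). EV and Tpm2.1 cells were both kept in serum-containing medium with puromycin and were compared attached, after 6 hours on culture plates, and in suspension on plates that prevent attachment, sampled after 5 hours and after 1, 2 and 4 days. Suspended Tpm2.1 cells were split with Annexin V beads, which bind phosphatidylserine exposed on dying cells, into an apoptotic and a non-apoptotic fraction. The EV cells and the attached cells were not split, so comparisons of a fraction with them set sorted against unsorted cells. The labels name 1 line of each kind and do not say whether it is a clone or a pool, or which cultures the replicates came from. The p-values therefore measure the spread between these libraries only.

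These genes are textbook interferon-stimulated genes. Type I and lambda interferons signal through JAK1 and TYK2 to transcription factors, among them STAT2 and IRF9, that bind the interferon-stimulated response element in promoters, and IRF3 can drive some of the same genes without interferon. IFIT proteins bind foreign RNA ends, OAS enzymes sense double-stranded RNA and make oligoadenylates as a second messenger, and RSAD2 (viperin) and CMPK2 act on cytidine nucleotides.

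The 10 genes lie on 3 chromosomes of the hg38 build. IFIT2 (ENSG00000119922, chr10:89283694-89309276), IFIT3 (ENSG00000119917, chr10:89327894-89340971), IFIT1 (ENSG00000185745, chr10:89392546-89406486) and IFIT5 (ENSG00000152778, chr10:89414586-89421001) form a cluster on the plus strand of chromosome 10. OAS1 (ENSG00000089127, chr12:112906777-112933222), OAS3 (ENSG00000111331, chr12:112938352-112973249) and OAS2 (ENSG00000111335, chr12:112978395-113011723) follow each other on the plus strand of chromosome 12, and OASL (ENSG00000135114, chr12:121019111-121039242) lies apart on the minus strand. CMPK2 (ENSG00000134326, chr2:6840570-6866635, minus strand) and RSAD2 (ENSG00000134321, chr2:6865806-6898239, plus strand) overlap head to head and share 14 exonic bases. The counting is not stated to use strand, so reads in those bases cannot be assigned to either gene. IFIT2 shares 356 of its 4101 exonic bases with AL353751.1 on the same strand, a gene with 39 counts over all libraries against 105749 for IFIT2.

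Because the families share a known promoter element, the stretches that hold its core are shown first. RefSeq start windows (GRCh38.p14, 250 bases before to 50 after a start) were found for 7 of the 10 genes: IFIT1, IFIT3, IFIT5, OAS1, OAS3, RSAD2 and CMPK2. The core searched was GAAA, any 2 bases and GAAA, on both strands, in capitals below wherever it or its reverse complement occurs. Each line is read on the plus strand and lies before the gene start in the annotation or, for RSAD2, inside the gene but in no annotated exon.
IFIT1, chr10:89392487-89392545: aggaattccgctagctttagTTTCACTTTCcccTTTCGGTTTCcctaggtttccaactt
IFIT3, chr10:89327821-89327893: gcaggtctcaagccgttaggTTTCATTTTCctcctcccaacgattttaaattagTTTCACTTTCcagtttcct
IFIT5, chr10:89414503-89414567: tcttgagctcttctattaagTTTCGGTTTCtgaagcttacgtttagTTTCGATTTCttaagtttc
OAS3, chr12:112938311-112938351: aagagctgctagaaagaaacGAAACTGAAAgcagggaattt
RSAD2, second start, chr2:6877612-6877661: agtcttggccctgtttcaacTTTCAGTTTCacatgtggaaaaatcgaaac
The window nearest the gene start held the core in 4 of 7 genes (IFIT1, IFIT3, IFIT5 and OAS3), and windows with the core make up 3.57% of all 35116 windows of that length. In IFIT1 the 2 cores began 116 and 103 bases before the RefSeq start, in IFIT3 156 and 122, and in IFIT5 45 and 19. The IFIT5 window held 3 cores, 2 of them wholly before the start. In OAS3 the cores began 143 and 12 bases before the start, and only the first is shown. A second IFIT3 window, not shown, held cores 94 and 51 bases before its start. OAS1, CMPK2 and the first RSAD2 window did not hold these letters. With the last A dropped, the core was found in 8.11% of windows and in 5 of 7 genes, and with CT added at its end, in 0.273% of windows and in 3 of 7 genes. Of the genes with the core in the nearest window, IFIT1, IFIT3 and OAS3 passed the test between the attached lines and IFIT5 did not. Of those without it, CMPK2 and RSAD2, whose low counts are taken up below, passed and OAS1 did not. The part of the core in the line difference was not tested.

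Library totals ran from 13043529 to 27416335 counts. The overexpressed gene checked the labels: TPM2 stood at 24.9 CPM (counts scaled to the effective library size) in attached EV cells and 3302 in attached Tpm2.1 cells, a log2 fold change of 7.05 ± 0.10 (standard error). VIM, CD44, KRT18, EGFR and CAV1, listed as present in this line, were detected in every library. Of the genes listed as low, PGR was at 0 in 25 and CDH1 in 23 of the 28. ESR1, also listed as low, was detected in every library, at 0.123 to 2.41 CPM. Apoptotic libraries carried more mitochondrial RNA (group means of 3.40 to 6.13% of counts) than non-apoptotic ones (1.26 to 1.53%). At 4 days the apoptotic pair also stood apart with a mean of 18430 genes detected, against 21520 to 24190 in the other 13 groups. The main comparisons and time courses that use that pair are given with and without it, other than the values at 4 days themselves. So are the correlations within the Tpm2.1 libraries. The separation of the lines, the FPKM medians and the correlations over all 28 libraries are given only with it.

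Across the 28 libraries, 8 of the 10 genes were higher in every one of the 18 Tpm2.1 libraries than in any of the 10 EV libraries. This held for IFIT1, IFIT2, IFIT3, OAS2, OAS3, OASL, RSAD2 and CMPK2, and 1.11% of the 17191 genes tested showed the same separation. RSAD2 and CMPK2 passed the filter on low counts only through the Tpm2.1 groups, where they were high, so their part of that count was bound to differ. IFIT5 and OAS1 overlapped between the lines. The summed level of the 10 genes was 272 ± 0.965 CPM (SD, n = 2) in attached EV cells and 772 ± 1.83 in attached Tpm2.1 cells. It reached 2163 ± 26.4 in the non-apoptotic and 2813 ± 32.2 in the apoptotic fraction at 4 days, while EV cells in suspension stayed between 176 and 370. As in any bulk sample, more cells expressing a gene and more RNA of it per cell cannot be told apart.

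**Figure D1:**
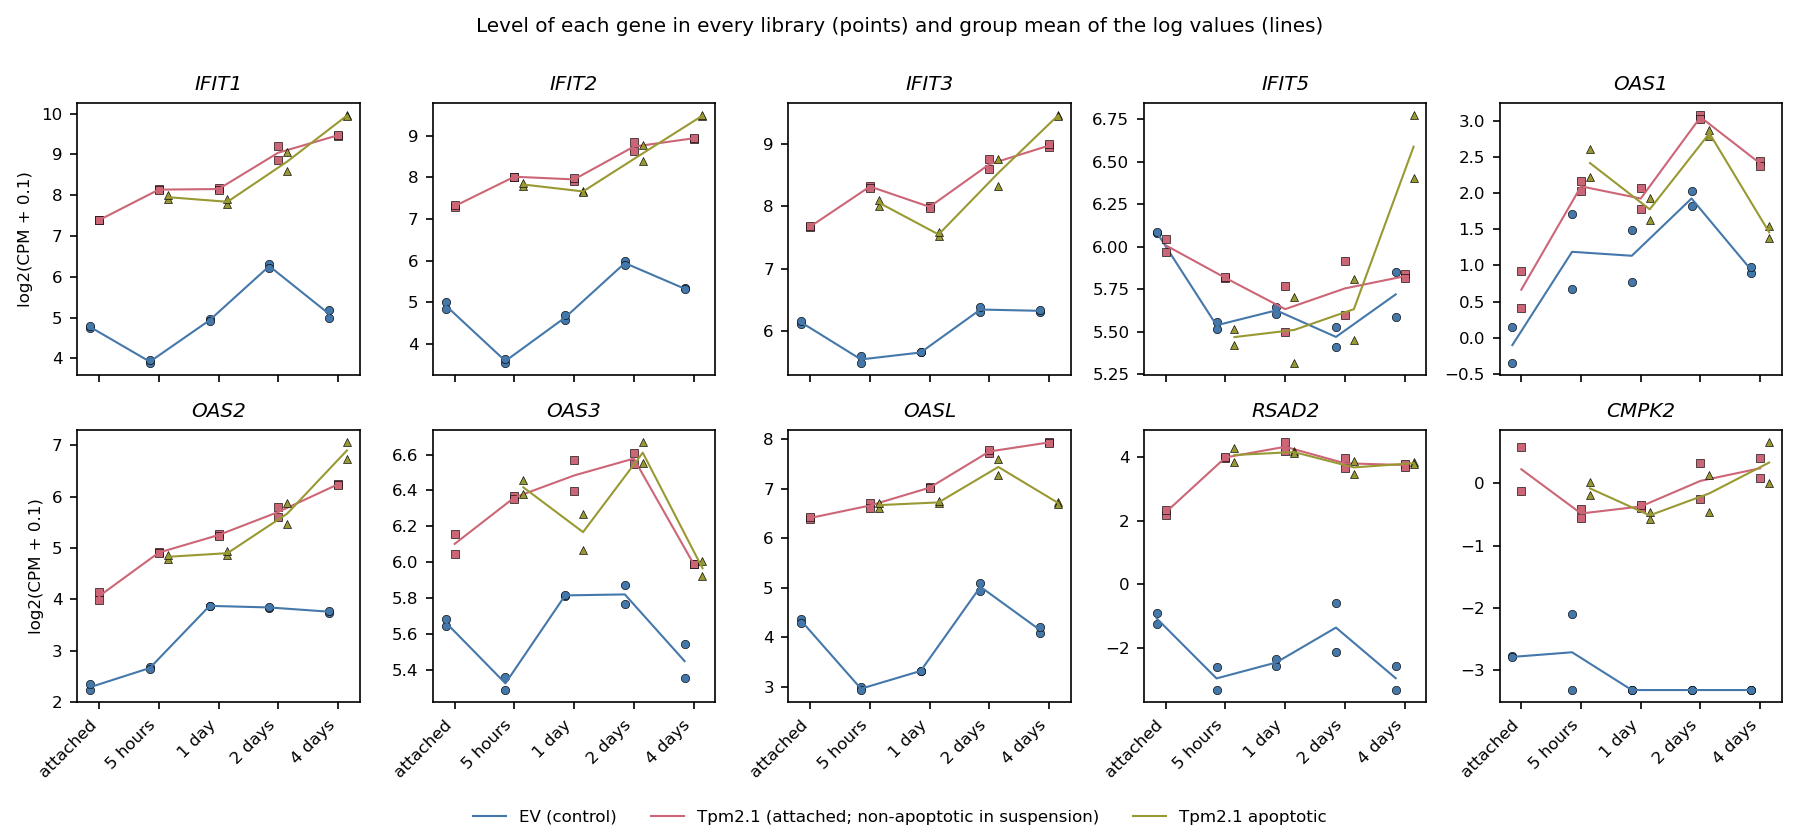
Level of each of the 10 genes as log2(CPM + 0.1) by culture condition, with points for libraries, lines for group means of the log values, and a separate vertical scale in each panel. The EV points (blue) lie below all Tpm2.1 points in 8 panels, and the lines mix for IFIT5 and OAS1.

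Levels of different genes were compared per gene length, as FPKM (reads scaled to gene length and library total). In the Tpm2.1 libraries IFIT3 had the highest median, 120.0 FPKM, followed by IFIT2 (63.1), IFIT1 (61.3) and OASL (30.0). IFIT5 (13.6), OAS3 (9.94), OAS2 (5.93) and RSAD2 (2.94) came next, with OAS1 (0.846) and CMPK2 (0.185) the lowest. In EV libraries IFIT3 also led, at 26.9 FPKM, but IFIT5 stood next at 11.7, ahead of IFIT2 (7.43), IFIT1 (6.43), OAS3 (6.20) and OASL (4.87). OAS2 (2.09), OAS1 (0.357) and RSAD2 (0.0166) were lower, and CMPK2 had a median of 0. FPKM used the deposited length of all exons of a gene, so a gene whose cells use a short transcript is set too low.

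**Figure D2:**
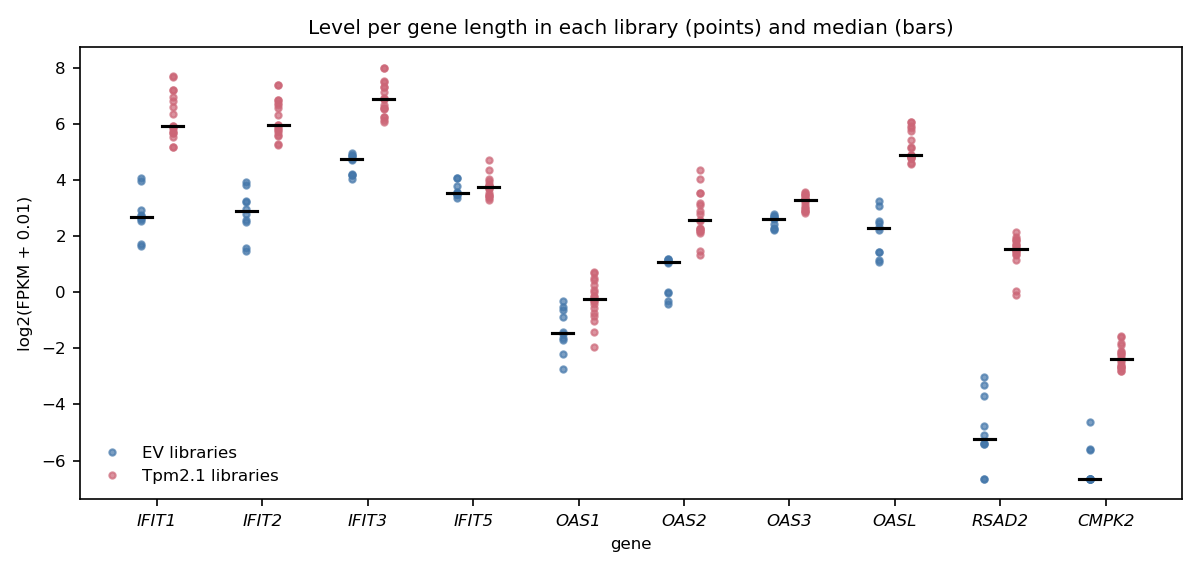
Level per gene length, log2(FPKM + 0.01), of each gene in every EV (blue) and Tpm2.1 (red) library, with a bar at the median of each line. IFIT3 has the highest median in both lines, and CMPK2 the lowest.

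In attached cells, 8 of the 10 genes were higher in Tpm2.1 than in EV cells and none was lower. RSAD2 and CMPK2, which passed the low-count filter only through Tpm2.1 groups, were bound to be among them, and 6 of the other 8 genes were higher. The background for that comparison was 20.5% of all genes called in either direction and 10.4% called higher. The median log2 fold change was 1.94, or 1.67 over those 8 genes, against 0.00 over all genes tested. Calls are from edgeR's quasi-likelihood test fitted to all 28 libraries, with Benjamini-Hochberg adjustment over 17191 genes and a threshold of 0.05.

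Among the IFIT genes, which bind RNA ends, IFIT1 stood at 26.5 and 27.9 CPM in the attached EV libraries and at 167 and 168 CPM in the attached Tpm2.1 libraries. This protein recognises caps that lack ribose methylation. Its log2 fold change was 2.62 ± 0.10 (standard error, SE; adjusted p = 1.92e-21). IFIT2, a partner of IFIT1 and IFIT3 in complexes, went from 31.8 and 28.6 to 156 and 161 CPM, a log2 fold change of 2.39 ± 0.08. IFIT3, which stabilises IFIT1 on RNA, went from 69.3 and 71.1 to 204 and 205 CPM (1.54 ± 0.08). IFIT5, which binds triphosphate RNA ends, did not differ beyond its spread. Its levels were 67.7 and 67.8 CPM in EV and 66.0 and 62.6 CPM in Tpm2.1 cells, and its log2 fold change of -0.08 ± 0.10 had an adjusted p of 0.678. IFIT1B, the remaining gene of the family, had too few counts to be tested.

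The OAS genes separated by member. OASL, which lacks synthetase activity and is known to enhance signalling by the sensor RIG-I, stood at 20.5 and 19.5 CPM in EV and at 84.1 and 85.5 CPM in Tpm2.1 attached libraries (log2 fold change 2.08 ± 0.08). OAS2 went from 4.60 and 4.98 to 15.7 and 17.5 CPM (1.79 ± 0.14). OAS3, the synthetase with the highest affinity for long double-stranded RNA, differed less, from 49.9 and 51.3 to 71.3 and 66.0 CPM (0.44 ± 0.07, adjusted p = 1.1e-05). OAS1 stood at 0.684 and 1.01 CPM against 1.23 and 1.79 CPM, and its log2 fold change of 0.83 ± 0.34 missed the threshold (adjusted p = 0.0774). The 3 synthetases thus ranged from a difference that missed the test to one of 3.46-fold.

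RSAD2 and its neighbour CMPK2 were nearly silent in EV cells. RSAD2, whose enzyme makes a chain-terminating cytidine analogue, had 17 counts over both attached EV libraries and 236 over both Tpm2.1 libraries, a ratio of CPM of 12.4 (95% counting interval 7.59 to 21.7). CMPK2, a nucleotide kinase, had 2 and 55 counts, a ratio of 24.6 (6.49 to 208). Intervals cover counting error only, since reads without molecular identifiers are not independent molecules.

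In suspension, too, the Tpm2.1 cells held more of these transcripts. All 10 were called higher in the non-apoptotic Tpm2.1 fraction than in EV cells over the mean of the 4 times, where 60.5% of all genes were called and 28.6% called higher. RSAD2 and CMPK2 were bound to be among them by the filter, and the other 8 were all called higher as well. The same held for the apoptotic fraction (68% called, 31.3% higher), or for 9 genes without 4 days (45% called, 21.1% higher), 7 of them among those 8. Both fractions were compared with the same EV libraries. At single times the 10-gene median log2 fold change of the non-apoptotic fraction lay between 2.54 at 2 days and 3.14 at 4 days. With CMPK2 set to its lower bound it was 3.04 at 4 days. Medians over all genes lay between -0.03 and 0.01. RSAD2 and CMPK2, bound to be high by the filter, raise these 10-gene medians. Mitochondrial RNA made up 1.20 to 4.23% of counts in the EV groups in suspension and 1.26 to 1.53% in the non-apoptotic groups, against 1.61 and 2.16% in attached EV and Tpm2.1 cells. The summed level of 6 noncoding RNAs, among them the nuclear MALAT1 and NEAT1, had group means of 374 and 495 CPM in attached EV and Tpm2.1 cells, 693 to 1572 CPM in EV suspension and 698 to 846 CPM in the non-apoptotic groups. MALAT1 was lower in the non-apoptotic fraction than in EV cells in suspension (-1.51 ± 0.05) and higher in attached Tpm2.1 cells (1.26 ± 0.10). The part of either in the line difference was not tested.

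IFIT1 levels in suspension are given for every library. EV cells held 14.7 and 15.4 CPM at 5 hours, then 31.1 and 30.0 after 1 day, 79.5 and 73.9 after 2 and 36.2 and 31.9 after 4 days. The non-apoptotic Tpm2.1 fraction held 283 and 279, 288 and 280, 468 and 593, and 701 and 715 CPM at those times. The apoptotic fraction held 240 and 256, 219 and 239, 383 and 536, and 995 and 982 CPM. Every Tpm2.1 library in suspension was thus above every EV library. The log2 fold change of the non-apoptotic fraction over EV was 4.22 ± 0.12 at 5 hours, 2.79 ± 0.10 at 2 days and 4.38 ± 0.11 at 4 days. In the order of the 14 group means, the apoptotic fraction at 4 days was highest and EV at 5 hours lowest. The pairs of neighbours whose libraries overlapped were the non-apoptotic and apoptotic fractions at 2 days and the non-apoptotic fraction at 1 day and 5 hours.

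IFIT2 and IFIT3 followed the same order of lines. The mean log2 fold change of the non-apoptotic fraction over EV was 3.55 ± 0.04 for IFIT2 and 2.53 ± 0.04 for IFIT3. IFIT2 ranged from 11.5 to 63.3 CPM in EV libraries and from 156 to 722 CPM in Tpm2.1 libraries. IFIT3 ranged from 44.6 to 83.3 and from 183 to 707 CPM. IFIT5 ranged from 42.4 to 67.8 CPM in EV and from 39.7 to 109 CPM in Tpm2.1 libraries, and only the apoptotic pair at 4 days (84.6 and 109 CPM) lay above every EV library. Its mean difference of 0.17 ± 0.06 in the non-apoptotic fraction was called (adjusted p = 0.0108). That call was lost with a correction for GC content (0.11, adjusted p = 0.0721), in DESeq2 (0.17, adjusted p = 0.0559) and without the second non-apoptotic library at 2 days (0.13, adjusted p = 0.0504). In the apoptotic fraction the IFIT5 mean of 0.22 became -0.00 when 4 days was left out.

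From 5 hours to 4 days OASL held 7.82 and 7.53, 9.87 and 9.86, 30.4 and 34.3, and 16.9 and 18.3 CPM in EV cells. The non-apoptotic fraction held 105 and 97.4, 131 and 128, 212 and 219, and 245 and 244 CPM. The apoptotic fraction held 98.1 and 105, 104 and 107, 155 and 194, and 106 and 103 CPM. In the apoptotic fraction the group means of OASL, OAS1 and OAS3 were lower at 4 days than at 2 days, without overlap of libraries (97.7 and 62.5 CPM for OAS3). That step was not tested, and the share of all genes without such overlap was not counted. The mean log2 fold change of OASL over EV was 3.49 ± 0.04 in the non-apoptotic fraction.

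OAS2 held 6.33 and 6.14 CPM in EV cells at 5 hours and 13.3 to 14.6 CPM in the 6 later EV libraries. In the non-apoptotic fraction it held 30.1 and 29.8, 38.3 and 37.6, 48.4 and 55.6, and 75.9 and 74.9 CPM from 5 hours to 4 days, a mean log2 fold change over EV of 2.00 ± 0.06. OAS3 ranged from 38.9 to 58.5 CPM in EV and from 60.7 to 102 CPM in Tpm2.1 libraries, with a mean difference of 0.75 ± 0.04. OAS1 was higher in the non-apoptotic fraction by 1.07 ± 0.13, but its libraries overlapped. It ranged from 0.684 to 3.99 CPM in EV and from 1.23 to 8.36 CPM in Tpm2.1 libraries. For OAS1 the neighbours from rank 5 to rank 8 of the group order (non-apoptotic at 5 hours and 1 day, EV at 2 days, apoptotic at 1 day) each overlapped the next.

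RSAD2 had 1, 3, 11 and 1 counts per EV group in suspension, and 746, 699, 507 and 380 counts in the non-apoptotic fraction. The non-apoptotic levels were 15.4 and 16.0, 21.9 and 18.0, 12.3 and 15.5, and 13.8 and 12.9 CPM in the order of the times. The ratio at 2 days, where EV had the most counts, was 39.2 (95% counting interval 21.7 to 79.1). At 5 hours it was 492 (88.1 to 19473). CMPK2 had 0 counts in EV at 1, 2 and 4 days, so only lower bounds can be given against a floor of 3 counts per group. They were at least 7.95-fold, 10.2-fold and 10.8-fold higher in the non-apoptotic fraction. CMPK2 stayed between 0.572 and 1.48 CPM in all 18 Tpm2.1 libraries.

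**Figure D3:**
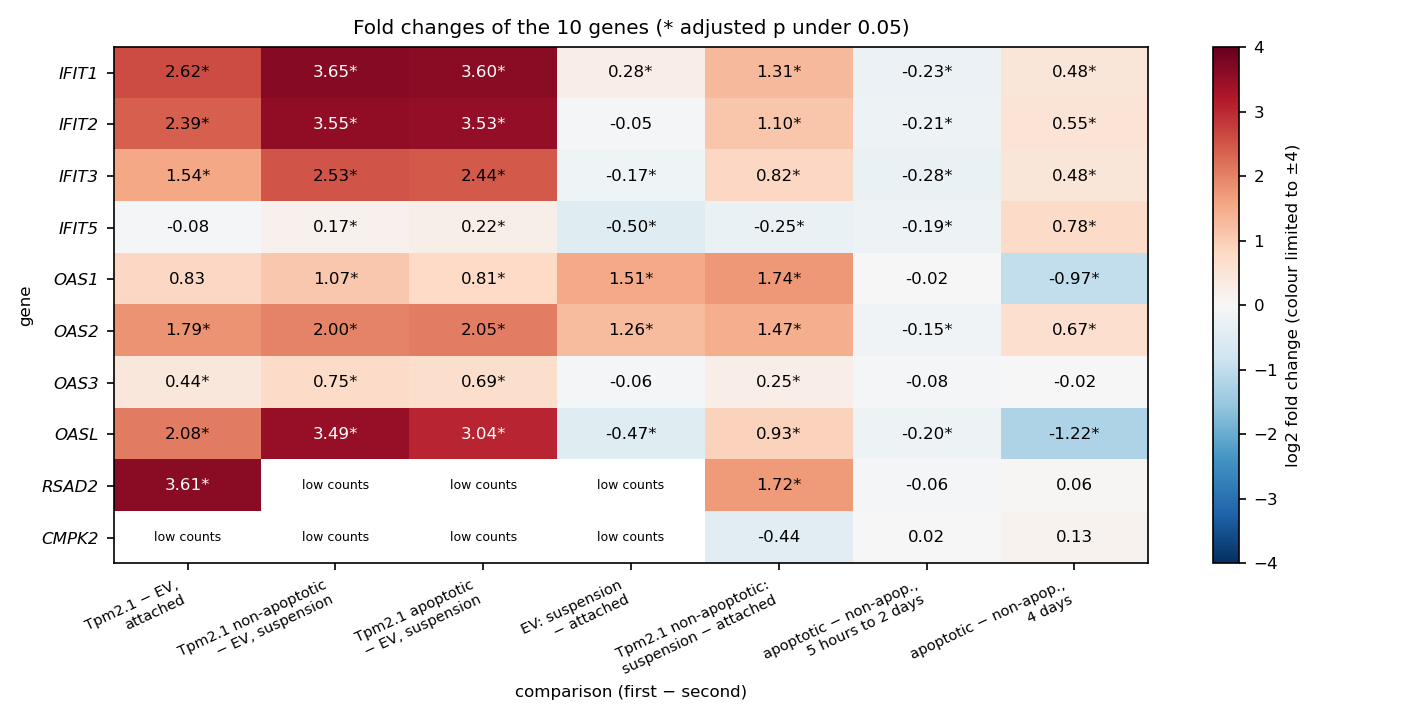
Log2 fold change of the 10 genes (rows) in 7 comparisons (columns, first minus second), with an asterisk where the adjusted p is under 0.05 and "low counts" where the EV groups hold too few reads for a fold change. The first 3 columns, Tpm2.1 against EV, hold 1 negative value, -0.08 for IFIT5 in attached cells, and the IFIT5 values in suspension are 0.17 and 0.22.

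Detachment was examined within each line. In EV cells the mean of the 4 suspension times differed from attached cells for 7 of 10 genes, 3 higher and 4 lower, where 66.3% of all genes were called, so the count is near the background. OAS1 (1.51 ± 0.27) and OAS2 (1.26 ± 0.13) rose on average, and IFIT5 (-0.50 ± 0.08) and OASL (-0.47 ± 0.08) fell. IFIT1 rose by 0.28 ± 0.10 and IFIT3 fell by 0.17 on the log2 scale. The IFIT1 call was lost with GC correction (0.18), in DESeq2 (0.24) and without the first attached EV library (0.24). That of IFIT3 was lost without the first (-0.20) or the second (-0.16) attached EV library. RSAD2 was called lower (adjusted p = 0.0024), on 17 counts attached and 1 to 11 counts per group in suspension.

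The EV means hid a time course. At 5 hours 7 genes were called lower and 1 higher, where 28.7% of all genes were lower and 26% higher (54.7% called). At 2 days 1 was lower and 6 were higher, where 31.3% of all genes were lower and 33.3% higher (64.6% called). At 5 hours, IFIT1 (-0.86 ± 0.14), IFIT2 (-1.34 ± 0.12), IFIT3 (-0.59 ± 0.09), IFIT5 (-0.55 ± 0.11), OAS3 (-0.34 ± 0.08) and OASL (-1.38 ± 0.12) were all below attached EV cells. At 2 days IFIT1 (1.49 ± 0.11), IFIT2 (1.02 ± 0.09), IFIT3 (0.21 ± 0.08) and OASL (0.69 ± 0.09) were above them. OAS1 was above attached EV cells at each of the 4 times, and OAS2 from 1 day on. From 5 hours to 4 days, 5 of the 10 genes rose in EV cells and none fell, where 28.3% of all genes rose and 24.5% fell.

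In Tpm2.1 cells the non-apoptotic fraction in suspension was higher than attached cells for 8 genes and lower for 1, where 61.4% of all genes were called and 30.8% called higher. The log2 fold changes were 1.74 ± 0.22 for OAS1, 1.72 ± 0.15 for RSAD2, 1.47 ± 0.09 for OAS2, 1.31 ± 0.08 for IFIT1 and 1.10 ± 0.06 for IFIT2. OASL (0.93 ± 0.06), IFIT3 (0.82 ± 0.06) and OAS3 (0.25 ± 0.05) also rose. IFIT5 fell by 0.25 on the log2 scale, a call lost without the first attached Tpm2.1 library (-0.21, adjusted p = 0.115). None of the early decreases seen in EV cells was called at 5 hours, where IFIT1 (0.75 ± 0.09), IFIT2 (0.71 ± 0.07), IFIT3 (0.64 ± 0.07) and OASL (0.25 ± 0.07) were above attached Tpm2.1 cells.

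From 5 hours to 4 days in the non-apoptotic fraction, IFIT1 (1.33 ± 0.09), OAS2 (1.33 ± 0.10), OASL (1.28 ± 0.07), IFIT2 (0.92 ± 0.07) and IFIT3 (0.66 ± 0.07) rose. OAS3 fell by 0.37 on the log2 scale. Background shares were 29.9% of all genes higher and 25% lower. RSAD2, at -0.24 ± 0.16, and IFIT5, at 0.01 ± 0.11, did not pass. RSAD2 was at 15.4 and 16.0 CPM at 5 hours, while IFIT1, IFIT2, IFIT3, OAS2 and OASL were called higher at 4 days than at 5 hours.

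The difference between those responses was tested directly, as the line difference in suspension minus the line difference in attached cells. It was positive and called for 6 genes and negative for none, where 33.5% of all genes were called and 17% called positive. OASL (1.41 ± 0.10), IFIT2 (1.15 ± 0.10), IFIT1 (1.03 ± 0.12), IFIT3 (0.99 ± 0.09) and OAS3 (0.31 ± 0.08) passed. RSAD2 passed with an adjusted p of 1.39e-05, on few EV counts. It is among the 6, but met the filter on low counts only through Tpm2.1 groups. MALAT1 had a value of -2.77 ± 0.11 in the same test, and its part in these values was not tested. OAS1 (0.23 ± 0.38) and OAS2 (0.21 ± 0.16) did not, and for both the rise in suspension was called in each line. By time, the IFIT1 value was 1.60 ± 0.16 at the earliest, 0.60 ± 0.15 after 1 day, 0.17 ± 0.14 after 2 and 1.76 ± 0.15 after 4 days. At 2 days, when EV cells held their highest IFIT1 level, the IFIT1 value did not pass (adjusted p = 0.392).

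**Figure D4:**
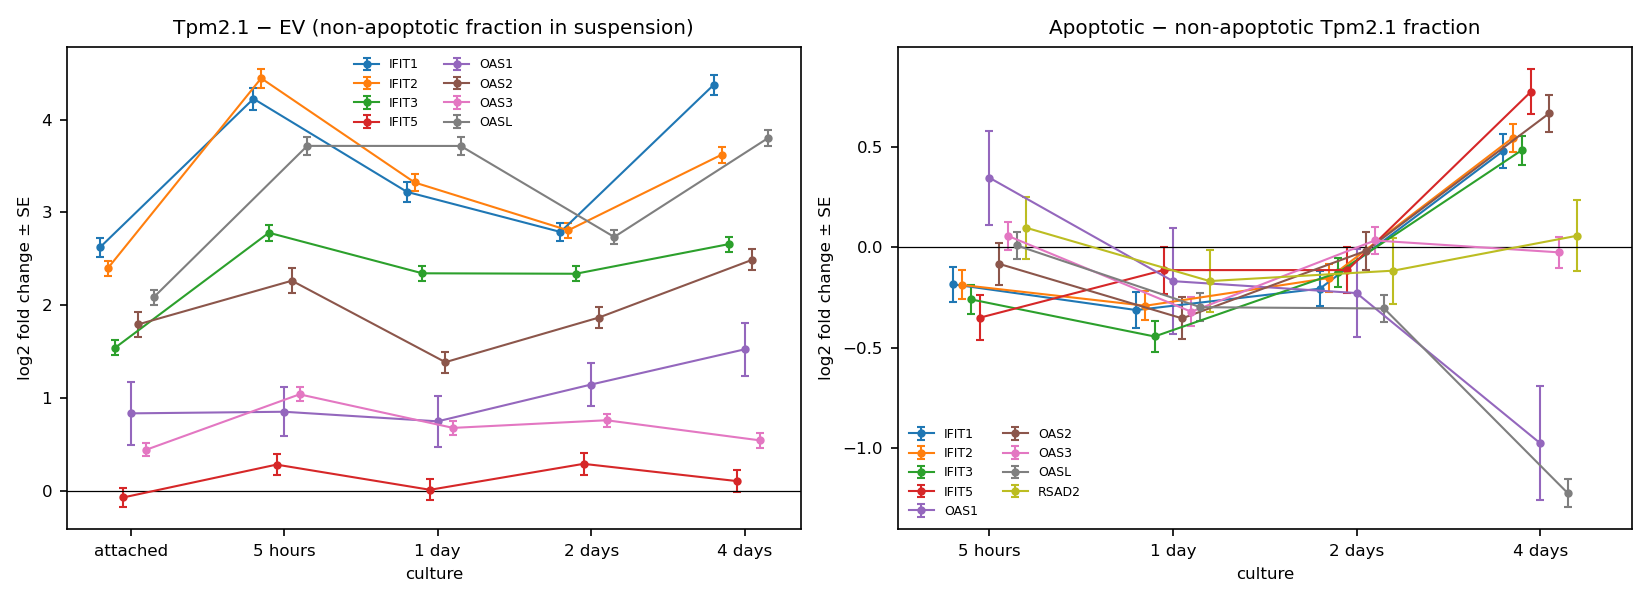
Left, log2 fold change ± SE of Tpm2.1 over EV cells, attached and at 4 times in suspension (non-apoptotic fraction), for 8 genes; right, apoptotic over non-apoptotic fraction at 4 times, for 9 genes. On the left the differences of IFIT1 and IFIT2 are smaller at 2 days than at 5 hours or 4 days, and on the right OASL and OAS1 fall at 4 days while IFIT1, IFIT2, IFIT3, IFIT5 and OAS2 lie above 0.

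The apoptotic and non-apoptotic Tpm2.1 fractions differed little up to 2 days. Over the mean of 5 hours, 1 day and 2 days, 6 of the 10 genes were lower in the apoptotic fraction and none was higher, where 38.5% of all genes were called and 21.8% called lower. The sizes were small: IFIT3 fell by 0.28, IFIT1 by 0.23, IFIT2 by 0.21, OASL by 0.20, IFIT5 by 0.19 and OAS2 by 0.15 on the log2 scale. OAS1 (-0.02 ± 0.14), OAS3 (-0.08 ± 0.04), RSAD2 (-0.06 ± 0.09) and CMPK2 (0.02 ± 0.31) did not pass. At single times 2 genes were lower at 5 hours, 6 at 1 day and 1 at 2 days. Of all genes 11.8%, 11.3% and 9.71% were called lower at those times, and 21.4%, 19.3% and 16.6% in either direction. Over all 4 times together 2 genes were called, both lower, where 58% of all genes were called; 1 to 6 were called under the alternatives run. Mitochondrial RNA made up 4.60, 4.23 and 3.40% of counts in the apoptotic groups at 5 hours, 1 day and 2 days against 1.53, 1.48 and 1.26% in the non-apoptotic groups. MALAT1 was higher in the apoptotic fraction over those times by 1.03 ± 0.05 and at 4 days by 2.65 ± 0.10. The part of either in these differences was not tested.

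At 4 days the genes split. IFIT1, IFIT2, IFIT3, IFIT5 and OAS2 were higher in the apoptotic fraction, OAS1 and OASL were lower, and 72.1% of all genes were called, so 7 of 10 is close to the background. IFIT1 stood at 701 and 715 CPM in the non-apoptotic and 995 and 982 CPM in the apoptotic libraries (log2 fold change 0.48 ± 0.09). OAS2 stood at 75.9 and 74.9 against 107 and 133 CPM (0.67 ± 0.09). IFIT5 stood at 57.1 and 56.2 against 84.6 and 109 CPM (0.78 ± 0.11). OASL went the other way, from 245 and 244 to 106 and 103 CPM (-1.22 ± 0.07), as did OAS1, from 5.34 and 5.11 to 2.81 and 2.50 CPM (-0.97 ± 0.28). The groups did not overlap for any of these 5 genes, but the share of all genes without such overlap was not counted.

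Several calls at 4 days depended on a correction for the GC content of the transcripts. With it, IFIT1 (-0.12), IFIT2 (-0.01), IFIT3 (0.06) and IFIT5 (-0.14) were no longer called. OAS2 (0.52), OASL (-0.79) and OAS1 (-0.99) kept their calls, and OAS3, at -0.02 ± 0.08 without the correction, became 0.84. RSAD2 went from 0.06 ± 0.18 to -0.58. IFIT5 has 37.4% GC, lower than all but 6.69% of the genes tested, and OAS3 has 54.3%. Mitochondrial RNA made up 6.13% of counts in the apoptotic pair against 1.40%, and fewer genes were detected; the part of either in these differences was not tested.

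The shift between 5 hours and 4 days in the fraction difference was called for 7 genes, where 66.9% of all genes were called. It was 1.12 ± 0.16 for IFIT5, 0.75 ± 0.14 for OAS2, 0.74 ± 0.10 for IFIT3, 0.73 ± 0.10 for IFIT2 and 0.67 ± 0.12 for IFIT1, and -1.32 ± 0.37 for OAS1 and -1.23 ± 0.10 for OASL. With 2 days in place of 4 days, 1 gene was called, OASL at -0.31, where 8.46% of all genes were called. GC correction ended the calls of IFIT1 (0.00), IFIT2 (0.12) and IFIT5 (0.13). Within the apoptotic fraction from 5 hours to 4 days, OAS2 (2.08 ± 0.10), IFIT1 (2.00 ± 0.09), IFIT2 (1.66 ± 0.07), IFIT3 (1.40 ± 0.07) and IFIT5 (1.14 ± 0.11) rose. OAS1 fell by 1.00 and OAS3 by 0.45 on the log2 scale, where 35.3% of all genes rose and 41.6% fell. From 5 hours to 2 days IFIT1 (0.89 ± 0.09), OAS2 (0.86 ± 0.10), OASL (0.78 ± 0.07), IFIT2 (0.76 ± 0.07), IFIT3 (0.49 ± 0.07) and OAS3 (0.19 ± 0.07) rose and RSAD2 fell by 0.40, where 21.5% of all genes rose and 20.6% fell. The RSAD2 libraries overlapped, at 14.1 and 19.5 CPM at 5 hours and 10.9 and 14.7 at 2 days. The apoptotic libraries at 2 days lay far apart, at 320 and 432 CPM for IFIT3. These standard errors use a spread estimated over all 14 groups and need not reflect that of this pair. OAS1 (0.40 ± 0.23) and IFIT5 (0.18 ± 0.12) did not pass, so the directions of OAS1 and OAS3 turned with the last time used. With GC correction, from 5 hours to 4 days, IFIT5 was no longer called (0.14), OAS3 turned to 0.49 and OASL, at 0.04 without it, rose by 0.55.

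The genes did not all vary together. Over the 18 Tpm2.1 libraries, Pearson's r of log2 CPM was 0.995 between IFIT1 and IFIT2, 0.979 between IFIT1 and OAS2, 0.965 between IFIT1 and IFIT3, 0.598 between IFIT1 and OASL, and -0.203 between IFIT1 and OAS3. Without the apoptotic pair at 4 days, over 16 libraries, these values were 0.993, 0.971, 0.942, 0.972 and 0.155, so those with OASL and OAS3 rested on that pair. Over the 10 EV libraries IFIT1 and IFIT2 had an r of 0.94 and IFIT1 and OASL of 0.86, while IFIT5 and OAS1 had -0.87. These values describe libraries that share culture times and sorting, and carry no test.

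The pathway around these genes was read from lists of named genes. Among ligands, IFNB1 had 0 counts in all 28 libraries. IFNL1, a lambda interferon, had 0 counts in attached EV cells and 58 in attached Tpm2.1 cells, at least 17.3-fold higher against a floor of 3 counts. In suspension it had 0 counts in EV cells at 5 hours, 1 day and 4 days and 1 count at 2 days, against 58, 31, 63 and 84 counts in the non-apoptotic fraction at 5 hours, 1 day, 4 days and 2 days. Of 16 ligand and receptor genes listed, 8 could be tested. In attached Tpm2.1 cells 3 were higher and none lower, and 7 were higher in the non-apoptotic fraction in suspension. The lambda interferons IFNL1, IFNL2 and IFNL3 passed the filter on low counts only through Tpm2.1 groups. Their part of these counts was thus bound to be higher. Attached, 10.4% of all genes were called higher and 10.1% lower, and in suspension 28.6% higher and 32% lower, and the counts of the lists that follow are read against these shares. Among receptors, IFNAR1 differed by -0.04 ± 0.06 attached and was higher by 0.13 ± 0.03 in suspension. IFNAR2 passed in neither (0.36 ± 0.37 and -0.07 ± 0.21), and 44.2% of its exonic bases overlap another gene on the same strand. IFNLR1, the lambda interferon receptor chain, was higher by 0.56 ± 0.17 and 0.45 ± 0.08.

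Of 11 tested sensors and adaptors, 4 were higher and 2 lower in attached Tpm2.1 cells, and 4 higher and 6 lower in suspension. The RNA sensor IFIH1 (MDA5) stood at a mean of 5.92 CPM in attached EV and 25.8 CPM in attached Tpm2.1 cells, a log2 fold change of 2.12 ± 0.12, and was higher by 2.32 ± 0.05 in suspension. DHX58 was higher by 1.31 ± 0.24 and 1.39 ± 0.11, and DDX58 (RIG-I) by 0.79 ± 0.09 and 0.91 ± 0.04. TRIM25, a ligase acting on RIG-I, was lower, at -0.29 ± 0.05 and -0.48 ± 0.03. Among 10 kinases and transcription factors, 1 was higher and 1 lower attached, and 4 higher and 3 lower in suspension, close to the 60.5% of all genes called there, with no called difference over 0.47 in size on the log2 scale. STAT2 differed by -0.07 ± 0.07 attached and -0.30 ± 0.03 in suspension, and IRF7 by 0.09 ± 0.14 and 0.11 ± 0.07. IRF3 differed by -0.20 ± 0.08 and -0.15 ± 0.04, and IRF1 by 0.27 ± 0.09 and -0.04 ± 0.05. IRF9 passed in neither (1.30 ± 0.49 and -0.29 ± 0.19), and 48.4% of its exonic bases overlap AL136295.5 on the same strand, so its counts are uncertain. STAT2 rose on detachment in both lines, by 1.64 ± 0.06 in EV and 1.40 ± 0.06 in Tpm2.1 cells.

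Of 7 genes that restrain the response or belong to the oligoadenylate pathway, 2 were higher and 1 lower attached, and 4 higher and 1 lower in suspension, where 60.5% of all genes were called. ISG15, a ubiquitin-like modifier, was higher by 1.16 ± 0.07 and 2.41 ± 0.04, and USP18, which removes it and blocks the receptor, by 0.77 ± 0.20 and 1.03 ± 0.10. Of 22 further interferon-stimulated genes, 12 were higher and 2 lower attached, and 14 higher and 5 lower in suspension, against 20.5% and 60.5% of all genes called. IFI44 (1.37 ± 0.08 attached, 1.76 ± 0.04 in suspension), HERC5 (0.79 ± 0.08, 1.71 ± 0.04), SAMD9 (1.18 ± 0.08, 1.17 ± 0.04) and DDX60 (0.56 ± 0.13, 1.65 ± 0.07) were among the higher. BST2 was lower in both (-1.25 ± 0.09 and -0.60 ± 0.05). Medians were 0.46 attached and 0.49 in suspension for that list, and 1.94 and 3.01 for the 10 genes, beside 0.00 and -0.03 over all genes. RSAD2 and CMPK2 raise the 10-gene medians, since they passed the filter on low counts only through Tpm2.1 groups. The 10-gene medians are therefore not ranked against that list.

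**Figure D5:**
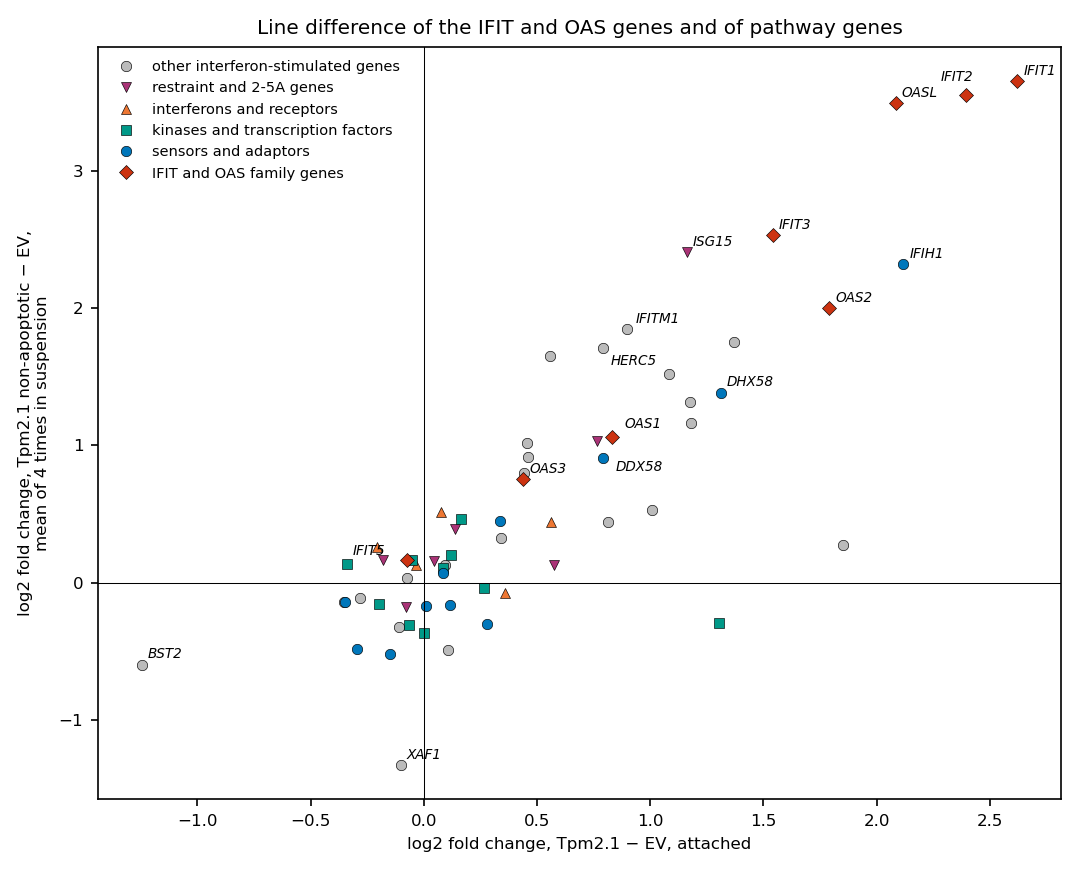
Log2 fold change of Tpm2.1 over EV in attached cells (x) against the mean of 4 suspension times, non-apoptotic fraction (y), for 8 IFIT and OAS genes (diamonds) and for 5 pathway lists, with RSAD2, CMPK2 and IFNL1 to IFNL3 left out for low EV counts. IFIT1, IFIT2 and OASL lie at the upper right, IFIH1 lies beside IFIT3 and OAS2, and IFIT5 lies near the crossing of the axes.

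Markers of immune cells, which are strong interferon responders, were low. PTPRC reached 0.195 CPM at most, and CD3E, CLEC4C and LILRA4 were each at 0 in 27 of 28 libraries. The sum of 6 leukocyte markers had group means of 2.10 to 5.88 CPM in EV and 0.966 to 5.44 CPM in Tpm2.1 cells, including CD14, which was detected in every library at 0.453 to 4.65 CPM. The sum of 3 dendritic cell markers stayed at or below 0.411 CPM in each group. The sum of 3 endothelial markers had group means of 3.28 to 11.1 CPM in EV and 2.92 to 11.1 CPM in Tpm2.1 cells, and CDH5 was at 0 in 17 libraries. PECAM1 among them rose on detachment by 4.20 ± 0.31 in EV and 3.44 ± 0.30 in Tpm2.1 cells, to at most 11.9 CPM. The sum of 3 fibroblast markers had group means of 2.30 to 18.0 CPM in EV and 1.33 to 8.46 CPM in Tpm2.1 cells, with DCN at 0 in 9 and LUM in 8 libraries. PDGFRB (-1.43 ± 0.11) and LUM (-2.95 ± 0.50) were lower in the non-apoptotic fraction than in EV cells, and DCN was higher (2.12 ± 0.85). The part of these markers in the results was not tested.

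The genes whose pattern over the 28 libraries was most like the mean of the 10, each standardised, were GBP4 (r = 0.98), CDH12 (0.97), CH25H (0.97), ADGRL3 (0.97), HTR2C (0.97), HERC5 (0.96), DCAF8L2 (0.96) and CRISPLD1 (0.96), of 12872 genes ranked. The libraries fall apart by line, so such an r mostly ranks the line difference, and 67 genes exceeded 0.9. Within the 18 Tpm2.1 libraries and the 10 EV libraries alone, r was 0.91 and 0.84 for GBP4, 0.76 and 0.88 for CH25H, but 0.96 and 0.37 for HERC5 and 0.81 and 0.02 for DCAF8L2. Without the apoptotic pair at 4 days the Tpm2.1 values were 0.90, 0.84, 0.95 and 0.74. TPM2 itself had an r of 0.96 over all libraries, 0.71 in Tpm2.1 (0.63 without that pair) and 0.08 in EV cells.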

How the data were processed

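The 28 libraries hold messenger RNA captured on poly-T beads and copied from random hexamers, per the labels' protocols. The authors deposited a count table, whose values are whole numbers of reads per gene, and an FPKM table. The deposited FPKM values equalled count over gene length over a scaled total (largest relative deviation 5.22e-15, with scaled totals 0.856 to 1.08 times the count totals) and served only for levels between genes. The build was hg38 and DESeq2 was used, per the submitters' processing notes, with aligner and counter not given in the sources used here. IDs and coordinates of 58724 of 58735 genes matched GENCODE release 29.

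The test was that of edgeR 4.0.16, under R 4.3.3 (TMM, filterByExpr on groups, at least 10 counts or about 0.656 CPM, 1 mean per group, quasi-likelihood test, 14 residual degrees of freedom). Adjusted p-values are Benjamini-Hochberg over 17191 genes within a contrast, at a threshold of 0.05. CPM used TMM-effective totals. A standard error is the log2 fold change over the square root of F. Libraries of a group differed by more than sampling noise, so none was counted as a repeat. The chi-square per gene between them ran from 1.82 in EV cells at 1 day to 10.0 in the apoptotic fraction at 2 days. The fit shares 1 estimate of the spread among the groups. Alternatives were DESeq2 1.42.0, other size factors, no filter, protein-coding genes, the contrast's libraries alone, a replicate block, GC correction, the mean without 4 days, and each library left out. The members and gene lists were chosen with earlier results of these data known. Named genes were the 10 members, TPM2, 15 fixed pathway genes (some are not reported here), up to 4 called genes per list and contrast with the smallest p, and the 8 most alike. Lists used GENCODE symbols. Promoters came from RefSeq.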

Additional observations from a re-analysis of the deposited data

Results flagged for a closer look

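The line difference in suspension differed from that in attached cells, by a test of the difference itself (edgeR's quasi-likelihood test, Benjamini-Hochberg adjustment), for 6 genes, where 33.5% of all genes were called and 17% called positive. On the log2 scale the difference was 1.41 for OASL, 1.15 for IFIT2, 1.03 for IFIT1, 0.99 for IFIT3 and 0.31 for OAS3. The fitted value of 3.90 for RSAD2 rests on EV groups with 1 to 17 counts and is no measure of size. RSAD2 also met the filter on low counts only through Tpm2.1 groups, so its part of the 6 is not comparable with those shares. All 6 calls held with GC correction and without 4 days.

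The difference between the apoptotic and non-apoptotic fractions was not the same at 4 days as at 5 hours for 7 genes, by the same kind of test; 66.9% of all genes were called, so that count is near the background. The shift was 1.12 for IFIT5, 0.75 for OAS2, 0.74 for IFIT3, 0.73 for IFIT2 and 0.67 for IFIT1, and -1.23 for OASL and -1.32 for OAS1. GC correction ended the calls of IFIT1 (0.00), IFIT2 (0.12) and IFIT5 (0.13), and with 2 days in place of 4 days 1 gene was called. These values rest on the apoptotic pair at 4 days, which had the fewest genes detected and the most mitochondrial RNA of the 14 groups.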

How the results depend on the processing

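With each library left out in turn, 8 genes were called in attached cells throughout, 5 to 7 in detached EV cells, 9 to 10 between the non-apoptotic fraction and EV cells, and 6 for the difference of line differences. Of all counts of called genes, 206 stayed within 1.5 times the main count and 14 did not. For single genes, 2045 values kept direction and call, 28 lost the call, 28 gained it and 54 changed sign.

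The count of genes that differed between fractions over the mean of all 4 times (2 called) was 5 without a filter on low counts, 1 with protein-coding genes alone, 1 with the contrast's libraries alone, 1 in DESeq2, 6 with GC correction and 6 without 4 days. With single libraries left out it ran from 1 (without the second non-apoptotic library at 2 days) to 5 (without the second apoptotic library at 2 days). In that mean IFIT5 became -0.000363 and CMPK2 -0.00500 without a filter, and IFIT2 0.0204 and RSAD2 0.00994 with protein-coding genes. GC correction gave IFIT5 -0.18 and OAS3 0.12, and the mean without 4 days gave IFIT5 -0.19 and OAS2 -0.15. Left-out libraries moved IFIT2 from -0.0830 to 0.0128, IFIT5 from -0.0171 to 0.0857, OAS2 from -0.0119 to 0.0913, RSAD2 from -0.129 to 0.00916 and CMPK2 from -0.0710 to 0.127.

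At 4 days the fraction difference turned with GC correction for IFIT1 (-0.12), IFIT2 (-0.00801), IFIT5 (-0.14), OAS3 (0.84) and RSAD2 (-0.58). RSAD2 was -0.0539 without a filter and OAS3 0.0511 with protein-coding genes, and left-out libraries moved RSAD2 from -0.0288 to 0.0781 and CMPK2 from -0.311 to 0.393. For the shift of the fraction difference, OAS3 was 0.91 with GC correction. With 2 days in place of 4 days, an alternative chosen after seeing the data, 1 gene was called and IFIT1 was -0.0219, and left-out libraries moved RSAD2 from -0.273 to 0.0933.

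Over time in the apoptotic fraction OASL was -0.11 without a filter and -0.0835 to 0.00412 with libraries left out. OAS3 was 0.49 with GC correction. With 2 days in place of 4 days OAS3 was 0.19, OAS1 0.40 and CMPK2 -0.0554. In the non-apoptotic fraction IFIT5, at 0.01, was -0.0264 with DESeq2 size factors, -0.0261 with the FPKM table's scaled totals, -0.0660 without a filter, -0.0558 with protein-coding genes, -0.0390 with the contrast's libraries alone, -0.0261 in DESeq2, and -0.00221 to 0.0229 with libraries left out. Against EV cells the apoptotic IFIT5 value was -0.0725 with GC correction and -0.000206 without 4 days. Left-out libraries moved IFIT2 in detached EV cells from -0.132 to 0.0203, OAS1 over time in EV cells from -0.795 to 0.292, and OAS1 in the difference of line differences from -0.0696 to 0.534. The causes were not tested.

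Same-numbered replicates did not deviate together (91 pairs of groups, r from -0.075 to 0.054). That cannot settle whether same-numbered libraries, such as the apoptotic and non-apoptotic fractions at a time, came from the same culture. The main tests treated them as unpaired. With the replicate number as a block, the counts of called genes were 8, 7, 9, 2, 10, 10, 5, 6, 7, 6 and 7, in the order attached lines, detached EV, detached non-apoptotic, fractions, non-apoptotic against EV, apoptotic against EV, the 3 time courses, the difference of line differences and the shift of the fraction difference, and no call changed. Depth limits RSAD2 and CMPK2 in EV cells, where no fold change was given from 0 counts.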

Other observations

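Other genes of the pathway lists also split between the fractions at 4 days. SAMD9 (1.64 ± 0.07), EIF2AK2 (1.39 ± 0.06), TBK1 (1.30 ± 0.08), PARP14 (1.10 ± 0.06), IFI44 (0.98 ± 0.06) and DDX58 (0.95 ± 0.08) were higher in the apoptotic fraction. ISG15 (-3.39 ± 0.09), TICAM1 (-3.04 ± 0.17), IRF3 (-2.30 ± 0.11), TYK2 (-2.18 ± 0.09) and USP18 (-1.79 ± 0.25) were lower. HELZ2 was also lower, at a mean of 11.5 against 184 CPM. Of 22 further interferon-stimulated genes, 12 were higher and 7 lower, where 72.1% of all genes were called. Over 5 hours, 1 day and 2 days, 3 were higher and 3 lower (38.5% of all genes called), and HELZ2 was 0.28 ± 0.03 and ISG15 -0.19 ± 0.04. GC correction was not run for these genes.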
